A study of Mus musculus with 12 samples.

Results

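Liver tumors in which E2f7, E2f8 and Rb1 had been deleted were compared with livers of wild-type mice, gene by gene. The comparison used 8 of the 12 RNA-seq libraries of the study, 4 from triple knockout (TKO) tumors and 4 from wild-type livers, which were chosen by their labels. TKO mice carried conditional alleles of Rb1, E2f7 and E2f8 and the Alb-Cre transgene, in which the albumin promoter drives Cre recombinase in hepatocytes, so the other cells of a tumor keep all 3 genes. The tumors arose without a carcinogen, in ageing mice that were killed at humane endpoints. The controls were adult livers labelled wild-type, from mice of matched age, so tumor and genotype changed together and cannot be told apart here. The study names its control mice as littermates, and those of its tissue staining as lacking Alb-Cre. It does not say whether the sequenced control livers carried the conditional alleles without Cre. All animals were labelled adult, with no exact age, and came from an FVB breeding. The other 4 libraries, from E2f7 and E2f8 double knockout (DKO) tumors, served only to estimate the spread between replicates. The study's methods give 4 livers per condition, and no label ties a tumor to an animal, so p-values measure the spread between these samples.

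The RB protein binds the activating E2F transcription factors and holds back genes needed for DNA replication until a cell commits to divide. E2F7 and E2F8 are atypical E2Fs, which repress many of the same genes later in the cycle and are themselves products of E2F target genes. Adult hepatocytes rarely divide and carry the metabolic work of the liver, divided between cells near the portal vein and cells near the central vein.

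Values are given in CPM, the edgeR measure of counts scaled to library size with TMM, and 13882 genes passed the filter on low counts. Total counts were 9165812 to 16190797 in wild-type livers and 10455159 to 16313303 in TKO tumors. Hepatocyte transcripts were abundant in every library, and albumin took 6.57% to 10.1% of counts in wild-type livers and 4.82% to 18.9% in TKO tumors. TKO tumor 3 was nearest to the livers, with a mean correlation of log2 CPM of 0.964 with the wild-type livers and 0.937 with the other TKO tumors. TKO tumor 4 also correlated more with the livers (0.933) than with the other tumors (0.924). TKO tumors 1 and 2 were at 0.939 and 0.935 with the livers and 0.944 and 0.942 with the other tumors. Gp2 also divided the libraries, at 15.979 and 31.5 CPM in TKO tumors 1 and 4, 26.032 and 19.9 CPM in wild-type livers 1 and 3, and at most 0.123 CPM in the other 4. Across all 12 libraries, 262 genes were higher and 224 lower in every library with Gp2 than in every library without it. No label names these 2 sets, which hold 2 wild-type livers and 2 TKO tumors each, and results are given with and without a term for them where that changes a call.

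The deleted genes were examined first. Rb1, the gene of RB, was at 10.7, 6.52, 8.27 and 7.69 CPM in wild-type livers 1 to 4 and 4.22, 5.47, 4.91 and 3.21 CPM in TKO tumors 1 to 4. All 4 tumors lay below all 4 livers, with 43 to 77 counts against 53 to 144. The log2 fold change was -0.90 (standard error 0.215, n = 4 each), which did not pass edgeR's quasi-likelihood test (adjusted p = 0.122) but passed DESeq2 (adjusted p = 0.00991). Over all alternatives the adjusted p of Rb1 ran from 0.00991 to 0.331, and permuting the labels exactly (two-sided) for Rb1 alone gave p = 0.0286, the smallest possible with 4 and 4 libraries. E2f8 went the other way, at 4.52, 8.97, 5.96 and 5.49 CPM in wild-type livers 1 to 4 and 26.049, 13.8, 52.2 and 12.3 CPM in TKO tumors 1 to 4. Every tumor exceeded every liver and TKO tumor 3 was the highest, with a log2 fold change of 2.08 (standard error 0.585, edgeR adjusted p = 0.146, range over the alternatives 0.0155 to 0.352). E2f7 had a log2 fold change of -0.01 and 0.69 to 0.895 CPM in the tumors against 0.542 to 1.11 CPM in the livers. Reads were summed over all exons of a gene, including any outside the deleted part, so the counts of Rb1, E2f7 and E2f8 do not show directly whether a gene was deleted. In bulk tissue, fewer cells of a type and less RNA per cell cannot be told apart.

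Of the 13882 genes tested, edgeR called 12 (0.0864%), 7 higher (0.0504%) and 5 lower (0.036%) in TKO tumors. For each of the 12 genes all 4 tumors lay on one side of all 4 livers. By construction the same holds within each set of libraries that Gp2 divides, so that is no separate check.

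**Figure D1:**
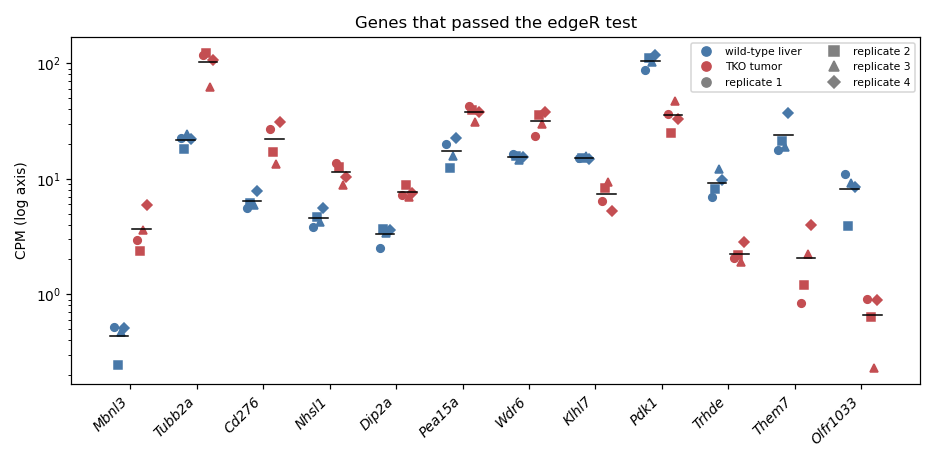
CPM (log axis) of the 12 genes called by edgeR in wild-type livers (blue) and TKO tumors (red). Each point is a library, the marker shape gives the replicate number, and the black bars are group means. No label says that a shared number pairs mice. Groups do not overlap for any of the 12 genes.

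Mbnl3 (Entrez 171170, mm9 chromosome X from 48470446 to 48559709), a regulator of alternative splicing, was at 0.519, 0.246, 0.474 and 0.513 CPM in wild-type livers 1 to 4 and 2.95, 2.35, 3.61 and 5.89 CPM in TKO tumors 1 to 4. The livers had 2 to 7 counts each, so the fold change rests on few reads. It rose with a log2 fold change of 3.01 (standard error 0.427, edgeR adjusted p = 0.0489). Tubb2a (Entrez 22151, mm9 chromosome 13 from 34166170 to 34169877), a beta-tubulin of microtubules whose reads may be shared with its close paralog Tubb2b, was at 22.5, 18.1, 24.2 and 22.1 CPM in wild-type livers 1 to 4 and 117, 123, 62.0 and 107 CPM in TKO tumors 1 to 4. TKO tumor 3 had the lowest tumor value and still exceeded every liver. Its rise was a log2 fold change of 2.23 (standard error 0.36, edgeR adjusted p = 0.0499). Cd276 (Entrez 102657, mm9 chromosome 9 from 58372107 to 58402939), the immune checkpoint ligand B7-H3, was at 5.64, 6.15, 5.96 and 7.83 CPM in wild-type livers 1 to 4 and 27.1, 17.1, 13.3 and 30.7 CPM in TKO tumors 1 to 4. TKO tumors 1 and 4 were the highest and TKO tumor 3 was the lowest of the tumors. The gene rose, with a log2 fold change of 1.79 (standard error 0.275, edgeR adjusted p = 0.0499). Nhsl1 (Entrez 215819, mm9 chromosome 10 from 18110128 to 18253698), a regulator of actin-based cell protrusions, was at 3.86, 4.67, 4.2016 and 5.56 CPM in wild-type livers 1 to 4 and 13.7, 12.6, 8.82 and 10.4 CPM in TKO tumors 1 to 4. The highest liver stayed below the lowest tumor. Its log2 fold change, an increase, was 1.32 (standard error 0.208, edgeR adjusted p = 0.0499). Dip2a (Entrez 64451, mm9 chromosome 10 from 75722174 to 75808036), a member of the disco-interacting protein family, was at 2.52, 3.69, 3.39 and 3.59 CPM in wild-type livers 1 to 4 and 7.24, 8.81, 6.90 and 7.53 CPM in TKO tumors 1 to 4. The tumor values were close to one another. The rise, as a log2 fold change, was 1.21 (standard error 0.175, edgeR adjusted p = 0.0489). Pea15a (Entrez 18611, mm9 chromosome 1 from 174126859 to 174136935), a death-effector-domain protein that binds ERK kinases, was at 19.9, 12.4, 15.6 and 22.3 CPM in wild-type livers 1 to 4 and 42.3, 39.6, 31.1 and 38.0 CPM in TKO tumors 1 to 4. Of the tumors, TKO tumor 3 was again the lowest. On the log2 scale it rose by 1.10 (standard error 0.17, edgeR adjusted p = 0.0499). Wdr6 (Entrez 83669, mm9 chromosome 9 from 108474644 to 108481070), a WD-repeat protein, was at 16.2, 15.9, 14.5 and 15.4 CPM in wild-type livers 1 to 4 and 23.6, 35.7, 29.7 and 37.6 CPM in TKO tumors 1 to 4. The livers varied little and TKO tumor 1 was nearest to them. On the log2 scale its rise was 1.03 (standard error 0.148, edgeR adjusted p = 0.0489).

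The 5 genes that fell included enzymes, an olfactory receptor gene and a ubiquitin ligase adaptor. Olfr1033 (Entrez 258571, mm9 chromosome 2 from 85874922 to 85884965), an olfactory receptor gene, was at 10.9, 3.93, 9.22 and 8.57 CPM in wild-type livers 1 to 4 and 0.904, 0.64, 0.23 and 0.895 CPM in TKO tumors 1 to 4. TKO tumor 3 was the lowest, and liver 2 the lowest of the livers. Its log2 fold change was -3.59 (standard error 0.582, edgeR adjusted p = 0.0499). Them7 (Entrez 74088, mm9 chromosome 2 from 105064477 to 105219953), a thioesterase superfamily gene, was at 17.6, 21.4, 18.7 and 37.2 CPM in wild-type livers 1 to 4 and 0.844, 1.21, 2.22 and 3.95 CPM in TKO tumors 1 to 4. TKO tumor 4 was the highest tumor and remained below every liver. Its log2 fold change was -3.54 (standard error 0.56, edgeR adjusted p = 0.0499). Trhde (Entrez 237553, mm9 chromosome 10 from 113835879 to 114239363), the enzyme that degrades thyrotropin-releasing hormone, was at 6.97, 8.11, 12.3 and 9.66 CPM in wild-type livers 1 to 4 and 2.05, 2.20, 1.92 and 2.83 CPM in TKO tumors 1 to 4. All tumors were close to one another and below every liver. Its log2 fold change was -2.04 (standard error 0.261, edgeR adjusted p = 0.0489). Pdk1 (Entrez 228026, mm9 chromosome 2 from 71711281 to 71741915), a kinase that inhibits pyruvate dehydrogenase, was at 87.1, 111, 103 and 119 CPM in wild-type livers 1 to 4 and 36.5, 24.9, 46.9 and 32.9 CPM in TKO tumors 1 to 4. Nearest to the livers was TKO tumor 3. Its log2 fold change was -1.57 (standard error 0.233, edgeR adjusted p = 0.0497). Klhl7 (Entrez 52323, mm9 chromosome 5 from 23606408 to 23667041), an adaptor of CUL3 ubiquitin ligases, was at 15.1, 14.999, 15.9 and 14.9 CPM in wild-type livers 1 to 4 and 6.39, 8.32, 9.36 and 5.22 CPM in TKO tumors 1 to 4. The livers were nearly alike and the tumors lay below them. Its log2 fold change was -1.06 (standard error 0.169, edgeR adjusted p = 0.0499).

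These calls lay close to the threshold, with adjusted p between 0.0489 and 0.0499. In every alternative in which they were tested the 12 genes kept their direction. With a term for the sets that Gp2 divides, edgeR called 0 genes (lowest adjusted p 0.0505, 2293 genes with an unadjusted p under 0.05), while DESeq2, without that term, called 507 of 14527 genes (3.49%; 290 higher, 217 lower) and included all 12. Among the genes edgeR tested, DESeq2 called 500 (3.6%). With total counts as the only scaling, 9 genes were called, 8 higher and 1 lower, and 5 of the 12 remained. Without TKO tumor 3, 231 of 14163 genes (1.63%) were called, 157 higher (1.11%) and 74 lower (0.522%), again with all 12. Leaving out wild-type liver 1, 2 or 3, TKO tumor 2 or DKO tumor 2 gave 0 calls (1584 to 2195 genes at an unadjusted p under 0.05), and leaving out TKO tumor 1 or DKO tumor 4 gave 1 call and DKO tumor 1 gave 2, all among the 12. Leaving out wild-type liver 4 gave 1 call, which was not among the 12, leaving out TKO tumor 4 gave 10 calls with 3 of the 12, and leaving out DKO tumor 3 gave 18 with 11 of the 12. Tumors and livers did not overlap at all for 1065 genes (7.67%), 608 higher (4.38%) and 457 lower (3.29%).

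**Figure D2:**
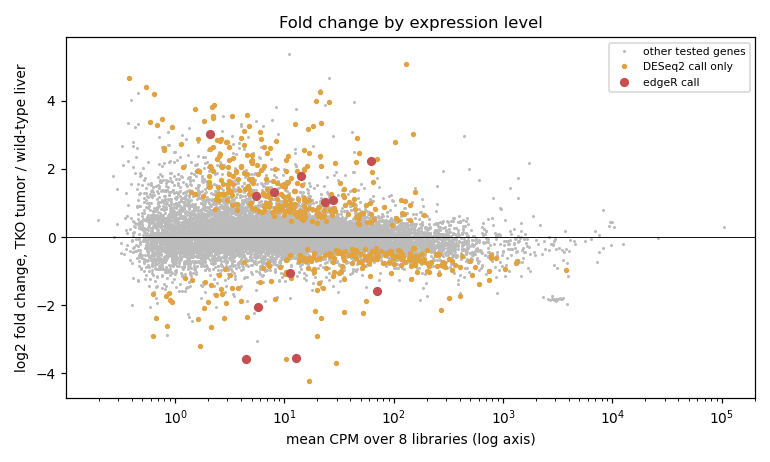
Log2 fold change of TKO tumors over wild-type livers against mean CPM over the 8 libraries (log axis), 1 point for each of 13882 tested genes. Red circles are the 12 edgeR calls, orange points are genes called by DESeq2 and not by edgeR, and grey points are the rest.

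Genes called by DESeq2 and not by edgeR, whose groups did not overlap, extended the list. Lpl, the lipase that releases fatty acids from lipoproteins, was at 47.1, 23.5, 36.3 and 26.5 CPM in wild-type livers 1 to 4 and 225, 602, 123 and 129 CPM in TKO tumors 1 to 4. TKO tumor 2 was far above the others and every tumor exceeded every liver (log2 fold change 3.01, 2.25 without TKO tumor 2, edgeR adjusted p = 0.0643). Tspan15, a tetraspanin that partners the protease ADAM10, was at 5.56, 3.07, 4.27 and 7.54 CPM in wild-type livers 1 to 4 and 30.9, 46.1, 9.20 and 28.7 CPM in TKO tumors 1 to 4. Nearest to the livers was TKO tumor 3, and the gene missed edgeR's threshold narrowly (log2 fold change 2.47, adjusted p = 0.0504). Sptb, an erythroid beta-spectrin, was at 1.48, 1.48, 1.69 and 1.17 CPM in wild-type livers 1 to 4 and 6.39, 11.6, 3.91 and 21.6 CPM in TKO tumors 1 to 4, with TKO tumor 4 highest (log2 fold change 2.89). Adgrv1, a large adhesion receptor, was at 55.8 to 431 CPM in tumors and 17.3 to 37.1 CPM in livers (log2 fold change 2.78, 1.84 without TKO tumor 4). Sdk1, Ttll11, Fgd1, Wnk4, Car2 and Arhgef16 had log2 fold changes of 3.75, 3.54, 2.82, 2.62, 2.55 and 2.43. For some of these the separation rested on few reads. Sdk1 had 1 to 6 counts in livers and 7 in TKO tumor 3, and Ttll11 had 1 to 10 and 13. Arhgef16 had 17 counts in wild-type liver 3 and 16 in TKO tumor 3. Arhgef16 rested largely on TKO tumor 1, at 12.3 CPM against 1.23 to 2.31 CPM in the other tumors, and had a log2 fold change of 1.09 without it. Car2, a carbonic anhydrase, was at 71.4 CPM in TKO tumor 4 against 7.21 to 14.5 CPM in the others, and Ttll11, a tubulin ligase-like gene, at 18.4 CPM against 0.997 to 2.98 CPM. Without TKO tumor 4 the log2 fold changes of Car2, Ttll11 and Wnk4 were 1.25, 2.00 and 1.87, and that of Sdk1 was 4.53 without wild-type liver 4.

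Among the lower genes of this kind, Mfsd2a, a transporter of lysophosphatidylcholine lipids, was at 76.3, 31.0, 43.5 and 71.2 CPM in wild-type livers 1 to 4 and 5.13, 1.35, 2.38 and 8.43 CPM in TKO tumors 1 to 4. No tumor reached 10 CPM (log2 fold change -3.68, edgeR adjusted p = 0.0908). Dpy19l3, a tryptophan C-mannosyltransferase, was at 45.2, 18.2, 36.9 and 40.05 CPM in wild-type livers 1 to 4 and 3.86, 3.77, 9.36 and 1.79 CPM in TKO tumors 1 to 4, with TKO tumor 3 the highest tumor (log2 fold change -2.91). Lrtm1, a leucine-rich repeat gene, was at 38.3 to 69.995 CPM in livers and 7.61 to 23.1 CPM in tumors. Sema3e, Rec114, Zap70, Olfr701 and Syne4 had log2 fold changes of -3.21, -2.63, -2.38, -2.36 and -2.07. Reads were few for some of these. Sema3e had 1 to 8 counts in tumors and 10 in wild-type liver 2. Syne4 had 5 to 15 counts in tumors and 18 in wild-type liver 4. Sema3e was at 7.79 CPM in wild-type liver 1 against 1.23 to 1.90 CPM in the other livers, and its log2 fold change was -2.15 without that liver. Without TKO tumor 1 those of Zap70 and Olfr701 were -2.97 and -3.01. The orosomucoid genes, which encode acute-phase plasma proteins and are close copies whose reads may be shared, were lower together. Orm1 was at 629, 492, 301 and 356 CPM in wild-type livers 1 to 4 and 43.5, 86.1, 228 and 46.8 CPM in TKO tumors 1 to 4. The tumor nearest to the livers was again TKO tumor 3, and Orm1, Orm2 and Orm3 had log2 fold changes of -2.14, -2.23 and -2.16 (edgeR adjusted p = 0.195, 0.15 and 0.158). Without TKO tumor 3, those of Orm1 and Orm2 were -2.92 and -2.89.

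RB and the E2Fs act at promoters, so promoters were searched for members of 3 lists, E2F and pocket proteins, G1/S genes and G2/M genes. The 4 members that DESeq2 called higher and that held a match are shown. The letters searched, on both strands of the 250 bases before each RefSeq start (GRCm38.p6), were TTTCCCGC, TTTCGCGC, TTTGCCGC and TTTGGCGC for E2F sites and TTTGAA and TTCGAA for the cell cycle homology region (CHR) bound by the DREAM complex. Capitals mark a match to E2F letters in Cdk2 and Tfdp1 and to CHR letters in Ccnb2 and Mki67.
Cdk2 (chr10:128705148-128705227, minus strand): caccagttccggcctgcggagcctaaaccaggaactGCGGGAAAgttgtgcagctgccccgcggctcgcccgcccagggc
Tfdp1 (chr8:13338672-13338750, plus strand): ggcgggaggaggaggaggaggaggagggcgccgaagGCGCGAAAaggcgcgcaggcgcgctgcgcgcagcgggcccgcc
Ccnb2 (chr9:70421680-70421757, minus strand): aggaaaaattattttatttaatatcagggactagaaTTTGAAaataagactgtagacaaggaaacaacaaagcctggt
Mki67 (chr7:135716454-135716531, minus strand): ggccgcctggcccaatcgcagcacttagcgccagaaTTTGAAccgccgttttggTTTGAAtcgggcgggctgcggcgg
E2F letters were in the window of 9 of 40 G1/S genes with a promoter entry (22.5%), 1 of 37 G2/M genes (2.7%) and 391 of 10424 tested genes (3.75%). CHR letters were in the windows of 6 of these G1/S genes, 13 G2/M genes (35.1%) and 1574 tested genes (15.1%). Over all 32851 windows of this length, 1.86% held E2F letters and 17.1% held CHR letters. Of 6 called members of the E2F and pocket protein list, Cdk2 and Tfdp1 held E2F letters and Rbl2, called lower, held CHR letters. None of the 4 called G1/S genes, Cdt1, Ezh2, Lig1 and Prim1, held either, and of 4 called G2/M genes with an entry Ccnb2 and Mki67 held CHR letters and none E2F letters. E2f8, which is outside these lists and was called higher by DESeq2, also held CHR letters. A match is a description of the letters and was not tested as a binding site.

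The regulators around RB moved in both directions. Of 23 genes of the E2F, pocket protein and CDK inhibitor list, 5 were called higher and 1 lower by DESeq2, against 2.07% and 1.53% of all tested genes. EdgeR called 0, with 6 higher and 2 lower at an unadjusted p under 0.05, against 9.94% and 6.33% of all tested genes. Cdkn2c, the CDK4 and CDK6 inhibitor p18, was at 2.74, 3.44, 1.83 and 2.05 CPM in wild-type livers 1 to 4 and 10.8, 15.8, 3.45 and 12.2 CPM in TKO tumors 1 to 4. TKO tumors 1, 2 and 4 were well above the livers and TKO tumor 3 only just (log2 fold change 2.09, edgeR adjusted p = 0.0851). Cdkn1a, the CDK inhibitor p21, was at 5.56, 3.69, 2.91 and 13.5 CPM in wild-type livers 1 to 4 and 13.9, 28.9, 14.1 and 21.6 CPM in TKO tumors 1 to 4, with liver 4 close to TKO tumors 1 and 3 (log2 fold change 1.60, 2.27 without that liver). Cdk2, Cdk4 and Tfdp1, a dimer partner of the E2Fs, had log2 fold changes of 0.88, 0.59 and 0.75. Rbl2, the RB relative p130 that acts in resting cells, was at 34.4, 33.3, 33.8 and 36.023 CPM in wild-type livers 1 to 4 and 15.5, 15.7, 29.5 and 22.7 CPM in TKO tumors 1 to 4. It was lower in every tumor, with TKO tumor 3 nearest to the livers (log2 fold change -0.72, edgeR adjusted p = 0.132).

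Genes of DNA replication were mostly higher in the tumors. Of 52 G1/S E2F targets tested, 49 had a higher mean and 4 were called higher by DESeq2 (2.07% of all tested genes were), with 0 called by edgeR and 25 higher at an unadjusted p under 0.05 (9.94% of all tested genes). The median log2 fold change was 0.77, against 0.02 over all tested genes. It was 0.98 without TKO tumor 3 and 0.50 without TKO tumor 1. Prim1, a DNA primase subunit, was at 4.89, 4.30, 5.08 and 6.74 CPM in wild-type livers 1 to 4 and 21.2, 16.8, 12.3 and 14.3 CPM in TKO tumors 1 to 4. Cdt1, which loads the MCM helicase, was at 3.49, 4.06, 4.07 and 3.95 CPM in wild-type livers 1 to 4 and 11.034, 8.32, 6.52 and 11.1 CPM in TKO tumors 1 to 4. No tumor overlapped the livers for either gene (log2 fold changes 1.62 and 1.25, edgeR adjusted p = 0.0989 and 0.118). Lig1, the replicative DNA ligase, and Ezh2, a histone methyltransferase, had log2 fold changes of 1.56 and 1.01, and TKO tumor 3 lay inside the liver range for Lig1. Mcm10 was an exception, at 87.5, 138, 149.5 and 65.7 CPM in wild-type livers 1 to 4 and 57.8, 42.5, 91.7 and 53.5 CPM in TKO tumors 1 to 4.

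Mitotic genes were mostly higher in the tumors. Of 44 G2/M genes tested, 43 had a higher mean (52.5% of all tested genes did). DESeq2 called 5 higher (2.07% of all tested genes), edgeR called 0, and 30 were higher at an unadjusted p under 0.05 (9.94% of all tested genes). The median log2 fold change was 1.22, 1.45 without TKO tumor 3 and 0.84 without TKO tumor 1. It was the highest of the list medians with all libraries, but without TKO tumor 1 the median of the pericentral genes was higher, at 1.12. Ccnb2, a mitotic cyclin, was at 1.19, 0.861, 0.881 and 1.17 CPM in wild-type livers 1 to 4 and 7.54, 3.34, 1.76 and 4.55 CPM in TKO tumors 1 to 4. Mki67, the Ki67 proliferation antigen, was at 2.00, 1.48, 0.678 and 1.98 CPM in wild-type livers 1 to 4 and 10.3, 4.76, 2.76 and 8.28 CPM in TKO tumors 1 to 4. For both, TKO tumor 1 was the highest and TKO tumor 3 the lowest tumor, without overlap (log2 fold changes 2.06 and 2.09, edgeR adjusted p = 0.0915 and 0.146). Birc5, Hmmr and Kif20a, which act at the spindle, had log2 fold changes of 2.08, 1.93 and 1.79, and TKO tumor 3 lay within the liver range for each. Without TKO tumor 1 that of Hmmr was 1.28. The mean log2 CPM of the list was 0.599, 0.239, 0.248 and 0.851 in wild-type livers 1 to 4 and 2.22, 1.35, 0.673 and 1.74 in TKO tumors 1 to 4. TKO tumor 3 was below wild-type liver 4 on this score.

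**Figure D3:**
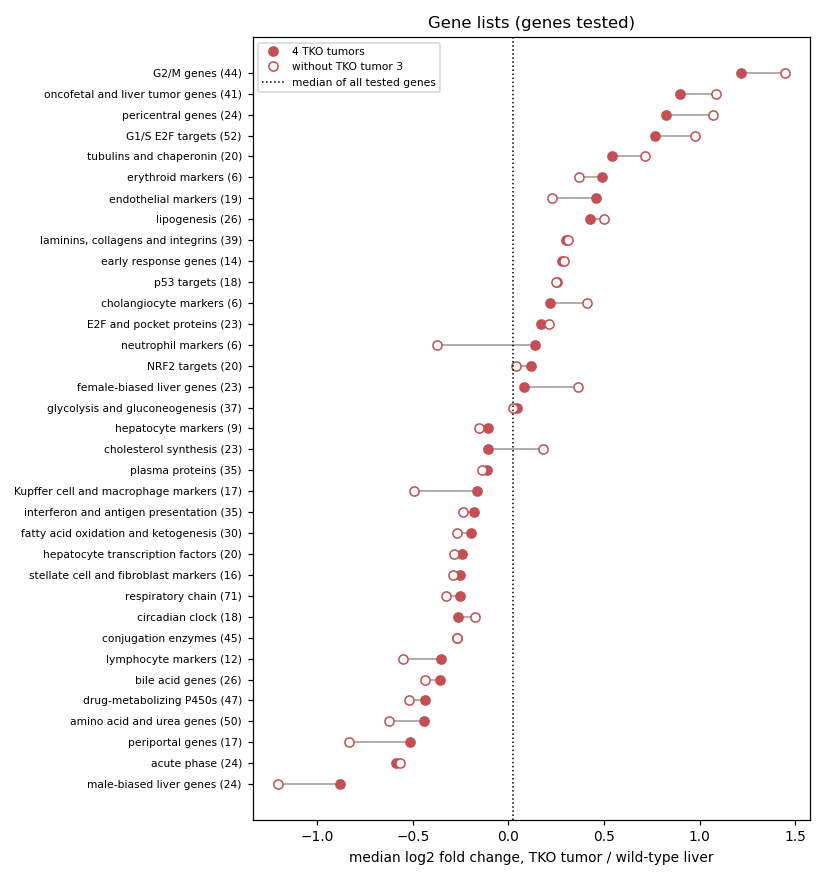
Median log2 fold change of TKO tumors over wild-type livers for each gene list with at least 5 tested members (number tested in brackets), with all 4 tumors (filled) and without TKO tumor 3 (open). The dotted line is the median of all tested genes. G2/M genes lie highest and male-biased liver genes lowest. Medians without any other library are not drawn.

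Tubulin genes were higher as well. Of 20 tubulin and chaperonin genes tested, 17 had a higher mean (median log2 fold change 0.54). The median was 0.71 without TKO tumor 3 and 0.33 without TKO tumor 1. DESeq2 called 5 of the 20 genes higher and edgeR 1, Tubb2a. Over all tested genes, 52.5% had a higher mean, and DESeq2 called 2.07% and edgeR 0.0504% higher. Tubb2b was at 6.23, 5.04, 4.88 and 5.49 CPM in wild-type livers 1 to 4 and 25.5, 25.7, 13.7 and 17.979 CPM in TKO tumors 1 to 4. Its groups did not overlap (log2 fold change 1.94, edgeR adjusted p = 0.0551), and reads of Tubb2a and Tubb2b may be shared. Tubb5, Tuba1a and Tuba1b had log2 fold changes of 0.96, 1.07 and 0.96. On the list score, TKO tumors 1, 2 and 4 were at 5.63, 5.63 and 5.63 and TKO tumor 3 at 4.93, near the livers at 4.54 to 4.89. Of 41 oncofetal and liver tumor genes, 31 had a higher mean and 7 were called higher by DESeq2 (median log2 fold change 0.90). Tubb2a is in this list too, so the 2 lists are not separate. Mean log2 CPM of the list was 2.28 in TKO tumor 3, within the liver range of 1.92 to 2.54. Anxa5, a phospholipid-binding annexin, was at 34.3, 18.7, 27.0 and 25.8 CPM in wild-type livers 1 to 4 and 135, 122, 37.4 and 105 CPM in TKO tumors 1 to 4. The tumors did not overlap the livers, although TKO tumor 3 was only just above them (log2 fold change 1.91, edgeR adjusted p = 0.075). Afp, the classic fetal liver protein, was at 1.69 to 6.25 CPM in tumors and 2.37 to 4.61 CPM in livers. Of 39 laminins, collagens and integrins, 32 had a higher mean and 2 were called higher by DESeq2, Nid1 and Lamb2 (log2 fold changes 2.29 and 1.46).

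Among metabolic genes of the hepatocyte, most of those of amino acid breakdown, the respiratory chain and fatty acid oxidation and ketogenesis had a lower mean. Glycolysis and gluconeogenesis and cholesterol synthesis were split, and lipogenesis was mostly higher. Of 50 amino acid and urea cycle genes, 45 had a lower mean and 7 were called lower by DESeq2 (1.53% of all tested genes were), with 0 called by edgeR and 13 lower at an unadjusted p under 0.05 (6.33% of all tested genes). The median log2 fold change was -0.44, with -0.63 without TKO tumor 3 and -0.36 without TKO tumor 1. Aass, an enzyme of lysine breakdown, was at 373, 338, 364 and 336 CPM in wild-type livers 1 to 4 and 131, 137, 248 and 150.2 CPM in TKO tumors 1 to 4. Gnmt, which uses up S-adenosylmethionine, was at 709, 1139, 833 and 811 CPM in wild-type livers 1 to 4 and 201, 319, 679 and 150.2 CPM in TKO tumors 1 to 4. For both, TKO tumor 3 was nearest to the livers (log2 fold changes -1.08 and -1.37, edgeR adjusted p = 0.105 and 0.16), and that of Gnmt was -1.97 without it. Mat1a, Tdo2 and Cth had log2 fold changes of -0.96, -0.93 and -1.07. Of 71 respiratory chain genes, 65 had a lower mean, 13 at an unadjusted p under 0.05, and 1, Cox7c, was called by DESeq2. The median log2 fold change was -0.25, and -0.14 without wild-type liver 2. Mean log2 CPM of that list was 6.19, 5.91, 6.25 and 5.84 in TKO tumors 1 to 4 and 6.01 to 6.68 in livers. Of 30 genes of fatty acid oxidation and ketogenesis, 24 had a lower mean, with 1 called higher and 1 lower by DESeq2. The median was -0.20, and -0.05 without wild-type liver 2. Mean log2 CPM of these genes was 7.01 to 7.43 in tumors, all within the liver range of 6.87 to 7.73. Glycolysis and gluconeogenesis had 21 of 37 means higher (median 0.04), with Pdk1 called lower by edgeR, cholesterol synthesis 9 of 23 (median -0.11) and lipogenesis 21 of 26 (median 0.43). With total counts as the only scaling, the median of all tested genes moved up by 0.15 on the log2 scale.

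Lists of drug, bile acid and conjugation genes had more lower than higher means. Over all tested genes, 47.5% had a lower mean and DESeq2 called 1.53% lower. Of 47 P450 genes, 34 had a lower mean and 3 were called lower by DESeq2 (median log2 fold change -0.44). Bile acid genes had a lower mean in 20 of 26 cases, 3 called lower by DESeq2 (median -0.36), and conjugation enzymes in 27 of 45, 5 called lower (median -0.27). EdgeR called 0 in these lists. Cyp2c54 was at 345, 657, 575 and 388 CPM in wild-type livers 1 to 4 and 46.1, 69.4, 281 and 176 CPM in TKO tumors 1 to 4. Cyp2c50, a close paralog, had a log2 fold change of -1.73 against -1.78 for Cyp2c54, and reads may be shared. Sult1d1, a sulfotransferase, was at 272, 176, 176 and 182 CPM in wild-type livers 1 to 4 and 78.8, 77.5, 67.7 and 117 CPM in TKO tumors 1 to 4. Groups did not overlap (log2 fold change -1.24, edgeR adjusted p = 0.0538). Slco1a1, an organic anion transporter of male liver, was at 881, 965, 1171 and 1154 CPM in wild-type livers 1 to 4 and 473, 338, 581 and 335 CPM in TKO tumors 1 to 4, and Akr1d1, a steroid reductase of bile acid synthesis, at 291, 274, 281 and 291 CPM in wild-type livers 1 to 4 and 210.3, 129, 109 and 109 CPM in TKO tumors 1 to 4. All tumors were below all livers for both genes (log2 fold changes -1.27 and -1.03). Nnmt had the lowest fold change of the conjugation enzymes (-4.23), but liver 1 alone was at 100.2 CPM and the groups overlapped, and without liver 1 it was -2.37. Of 24 male-biased liver genes, 20 had a lower mean (median log2 fold change -0.88). DESeq2 called 1 of them lower, Slco1a1, which is also a bile acid gene above, and edgeR called 0. Mean log2 CPM of the list was 6.86, 6.29, 8.48 and 7.16 in TKO tumors 1 to 4. It was 8.07 to 8.52 in livers, so TKO tumor 3 lay among them. All 12 libraries of the study had at most 6 counts of Xist and at least 1093 counts over 4 Y-linked genes.

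Acute-phase genes had a lower mean in 21 of 24 cases, against 47.5% of all tested genes (median log2 fold change -0.59). DESeq2 called 5 of them lower, against 1.53% of all tested genes. Saa1 and Saa3, serum amyloid genes, had log2 fold changes of -1.86 and -2.36, with overlapping groups. Saa1 was highest in wild-type liver 1 (log2 fold change -1.12 without it). Saa3 was at 107 CPM in wild-type liver 4 against 7.13 to 21.7 CPM in the other livers (-0.84 without it). Albumin itself was at 62569, 110350.0, 111190.0 and 89597 CPM in wild-type livers 1 to 4 and 152060.0, 206300.0, 66998 and 37568 CPM in TKO tumors 1 to 4, so TKO tumors 1 and 2 lay above the livers and TKO tumor 4 below them. Of 9 hepatocyte markers, Asgr1, the asialoglycoprotein receptor, was called lower by DESeq2 (log2 fold change -0.69). Of 20 hepatocyte transcription factors, DESeq2 called Nr1i3, the nuclear receptor CAR, lower and edgeR called 0 (log2 fold change -1.13, edgeR adjusted p = 0.154).

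**Figure D4:**
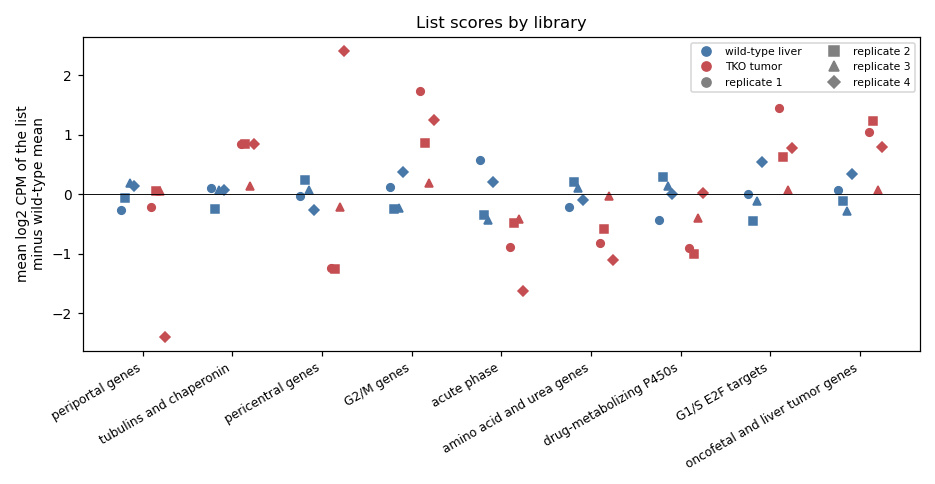
Mean log2 CPM of 9 gene lists in each library, minus the mean of the 4 wild-type livers (vertical axis, log2 units). Blue points are wild-type livers and red points TKO tumors, with the marker shape giving the replicate; TKO tumor 3 (red triangle) lies near the livers and TKO tumor 4 (red diamond) is extreme for pericentral and periportal genes.

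The tumors differed from one another in genes of liver zonation. The pericentral list, genes of hepatocytes near the central vein and of the beta-catenin pathway, had a mean log2 CPM of 6.21, 6.48, 6.31 and 5.98 in wild-type livers 1 to 4 and 5.01, 4.99, 6.03 and 8.64 in TKO tumors 1 to 4. TKO tumor 4 was above every liver, TKO tumors 1 and 2 were below every liver, and TKO tumor 3 lay among them. The median log2 fold change of the list, 0.83, turned to -0.77 without TKO tumor 4. The next genes were mostly chosen after their values were seen and get no test. Glul, the glutamine synthetase of pericentral hepatocytes, was at 653, 781, 607 and 463 CPM in wild-type livers 1 to 4 and 256, 213, 574 and 10331 CPM in TKO tumors 1 to 4. Slc1a2, a glutamate transporter, was at 117, 110.03, 120.4 and 49.5 CPM in wild-type livers 1 to 4 and 44.7, 32.1, 134 and 2889.6 CPM in TKO tumors 1 to 4. Nkd1, a Wnt target, was at 5.93, 4.67, 5.29 and 4.83 CPM in wild-type livers 1 to 4 and 2.11, 2.49, 6.44 and 316 CPM in TKO tumors 1 to 4. These genes were lowest in TKO tumors 1 and 2 and far above all others in TKO tumor 4. Axin2, another Wnt target, and Rhbg, an ammonium transporter, reached 75.0 and 276 CPM there, against 4.47 to 9.59 and 7.25 to 10.8 CPM in livers. Oat was at 95.2 and 64.0 CPM in TKO tumors 1 and 2, 6758 CPM in TKO tumor 4 and 687 to 1079.6 CPM in livers. Cyp2e1 was at 1454 and 1209 CPM in TKO tumors 1 and 2, 6929 CPM in TKO tumor 3, 12003 CPM in TKO tumor 4 and 6877 to 11821 CPM in livers, so TKO tumor 4 was near the highest liver for this gene.

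Of the 4 tumors, TKO tumor 4 lay below the livers in periportal genes. The list had a mean log2 CPM of 8.57, 8.84, 8.85 and 6.40 in TKO tumors 1 to 4 and 8.51 to 8.98 in livers. Arg1, arginase of the urea cycle, was at 1761, 1565, 1909 and 1479 CPM in wild-type livers 1 to 4 and 1209, 1461, 1192 and 196 CPM in TKO tumors 1 to 4. Gls2, the liver glutaminase, was at 37.8 CPM in TKO tumor 4 and 277 to 399 CPM in the other tumors. With a mean of at least 1 CPM, 95 genes were more than 4-fold above all 7 other libraries of the comparison in TKO tumor 4 and 41 more than 4-fold below, against 8 and 3 in TKO tumor 1, 7 and 8 in TKO tumor 2 and 1 and 11 in TKO tumor 3. Egfl6, Sult2a6 and the imprinted noncoding RNA Meg3 were among those with the largest SD between tumors, at 84.9, 191 and 172 CPM in TKO tumor 4.

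**Figure D5:**
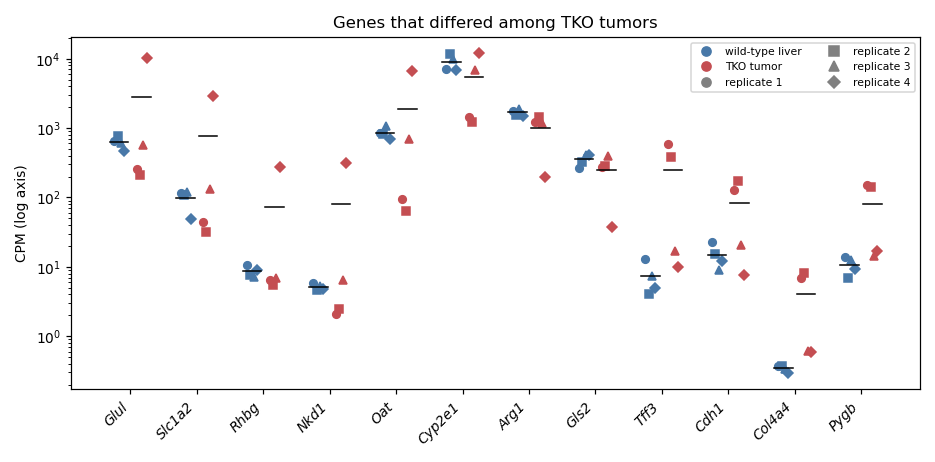
CPM (log axis) of 12 genes chosen after their values were seen to show how the tumors differ, in wild-type livers (blue) and TKO tumors (red). Points are libraries, marker shapes replicate numbers and black bars group means; TKO tumor 4 (diamond) is highest for Glul to Oat and lowest for Arg1 and Gls2, and TKO tumors 1 and 2 are highest for Tff3 to Pygb.

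TKO tumors 1 and 2 shared another group of genes, chosen after their values were seen except where DESeq2 called them. Tff3, a secreted trefoil peptide, was at 12.8, 4.06, 7.32 and 4.98 CPM in wild-type livers 1 to 4 and 589.9, 382, 16.9 and 9.92 CPM in TKO tumors 1 to 4. Pygb, the brain form of glycogen phosphorylase, was at 13.9, 6.88, 12.4 and 9.45 CPM in wild-type livers 1 to 4 and 151, 142, 14.3 and 17.1 CPM in TKO tumors 1 to 4. Cdh1, E-cadherin, was at 22.5, 15.5, 8.88 and 12.3 CPM in wild-type livers 1 to 4 and 129.5, 171, 20.9 and 7.53 CPM in TKO tumors 1 to 4. TKO tumors 1 and 2 were many times higher than every other library for each. Col4a4, a basement membrane collagen, was at 6.87 and 8.24 CPM in them and 0.614 and 0.597 CPM in TKO tumors 3 and 4. Trpm4, a cation channel, and Sstr2, a somatostatin receptor, were at 25.1 and 8.98 CPM in TKO tumor 1 and 25.6 and 16.2 CPM in TKO tumor 2, against 1.49 to 2.56 and 0.816 to 1.32 CPM in livers.

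TKO tumor 3 resembled the livers in many of the genes that set the other tumors apart. Of 2251 genes for which TKO tumors 1, 2 and 4 lay all above or all below the livers, TKO tumor 3 was within the liver range for 995 (44.2%), where the same share was 23.5% for TKO tumor 1, 14.7% for TKO tumor 2 and 29.3% for TKO tumor 4. Its Rb1 was below every liver and its E2f8 was the highest. Of 18 circadian clock genes, 7 had a higher and 11 a lower mean in the tumors, edgeR and DESeq2 called 0, and 1 had an unadjusted p under 0.05. Of these, Arntl and Ciart were chosen after their values were seen. Arntl was at 19.5 CPM in TKO tumor 3 and 8.67 CPM in TKO tumor 2, against 1.36 to 4.55 CPM in livers, and Ciart at 0.614 CPM in TKO tumor 3, against 4.79 to 20.3 CPM. Of 12917 genes with a mean of at least 1 CPM, 57.0% had a larger SD of log2 CPM among TKO tumors than among livers (median SD 0.309 and 0.282).

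Markers of other liver cells overlapped between groups in their summed level. The summed CPM of 19 endothelial markers was 241 to 366 in livers and 311 to 576 in tumors, with 16 of 19 means higher. The 17 Kupffer cell and macrophage markers summed to 311 to 781 CPM in livers and 283 to 831 CPM in tumors, with 12 means lower. The 16 stellate cell and fibroblast markers summed to 327 to 534 and 271 to 516 CPM, and the 6 tested cholangiocyte markers to 33.8 to 53.9 and 37.0 to 61.9 CPM. Of 12 lymphocyte markers 10 had a lower mean, with sums of 33.4 to 107 CPM in livers and 34.1 to 84.5 CPM in tumors. All 6 erythroid markers had a higher mean, with sums of 1030.3 to 1351 and 1041 to 2564 CPM, and 6 neutrophil markers summed to 4.06 to 10.9 and 3.21 to 14.1 CPM. In these 7 lists edgeR and DESeq2 called 0 genes, and 3 endothelial, 1 macrophage, 1 lymphocyte and 1 erythroid gene had an unadjusted p under 0.05, against 16.3% of all tested genes. Epcam and Igf2 followed the sets that Gp2 divides, with Igf2 at 45.8 and 25.5 CPM in TKO tumors 2 and 3 and 0.301 and 0.671 CPM in TKO tumors 1 and 4. Of 14 early response genes, which rise with tissue handling, Atf3, Fos and Jun were called higher by DESeq2 (log2 fold changes 1.96, 1.93 and 0.86). DESeq2 called 2.07% of all tested genes higher. The part of cell composition and handling in the results above was not tested.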

How the data were processed

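Poly(A) RNA of mouse livers and liver tumors was sequenced on a SOLiD instrument. The authors used BWA to map the reads to mm9 and featureCounts for counting (tool versions and strand setting are not given in the sources used here), and the deposited values are raw counts for 26301 Entrez genes. Symbols came from RefSeq (GRCm38.p6) for 24191 genes, which took 99.4% of counts, and mm9 positions from GENCODE vM1. Without a stated strand setting, overlapping genes cannot be told apart.

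Groups came from the labels. Genes were tested with edgeR 4.0.16 (R 4.3.3), with TMM scaling, filterByExpr, a mean for each of the 3 groups over all 12 libraries, the quasi-likelihood test and Benjamini-Hochberg adjustment at 0.05. DESeq2 1.42.0, which the study names, edgeR's likelihood ratio test and voom with quality weights (limma 3.58.1) were alternatives. Scaling by DESeq2's size factors or by library totals only, requiring 10 or more counts in all libraries or no minimum, fitting the 8 libraries by themselves, blocking on the replicate number, a threshold of 0.1 and omitting each library were tried too. A term for the 2 sets of libraries that Gp2 divides, at 1 CPM, was added after seeing the data. The fits were tested on simulated data with 200 changed genes. False calls were 14.8% of the calls with DESeq2, 13.7% with the likelihood ratio test and 2.54% with the quasi-likelihood test. The simulated counts used edgeR's own estimates of the spread. They held no sets of libraries and no tumor unlike the others, so they cannot rank the tests for these data. Standard errors are the log2 fold change over the square root of its F statistic. List scores are means of log2 CPM with a prior count of 2, or 0.5 as an alternative. An exact permutation test (scipy 1.17.1) over the 70 assignments was run for single genes.

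The samples compared, the gene lists and the tests were chosen with earlier results of these data known. The genes named were the deleted genes, all edgeR calls, the 15 highest and 15 lowest DESeq2 calls without overlap and with at least 1 CPM, the called members of each list (at most 5), or otherwise its 2 highest and 2 lowest, the 5 genes of at least 10 CPM with the largest SD among tumors, and sex-linked genes. Others are said in the text to have been chosen after their values were seen. Not every gene under this rule is described. Totals of 9165812 to 16313303 counts in the 8 libraries limit the precision of low genes.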

Additional observations from a re-analysis of the deposited data

Results flagged for a closer look

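A sample was singled out where its gap to the nearest of the other 3 of its group was above Dixon's critical share of the group's range, on the log2 CPM scale. Of 320 groups of 4 looked at, 17 met this (5.31%). Chance gives about 1 in 20 for unselected, independent groups. Many of these genes were chosen by their values and some vary together, so that rate is no background here. Whether 17 is more than chance gives was not tested.

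Among TKO tumors, TKO tumor 4 was far from the others for Rhbg (276 CPM), Arg1 (196 CPM), Gls2 (37.8 CPM), Egfl6 (84.9 CPM) and the periportal score (6.40 mean log2 CPM). TKO tumor 3 was apart for Hgf (11.2 CPM), for the E2F and pocket protein score (3.08 mean log2 CPM) and for the tubulin and chaperonin score (4.93 mean log2 CPM), each time on the side of the livers. TKO tumor 1 was apart for the Y-linked gene Kdm5d (2.29 CPM).

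Among wild-type livers, liver 1 was apart for Sult1d1 (272 CPM) and Mat1a (5870.4 CPM), liver 2 for Mbnl3 (0.246 CPM) and the tubulin and chaperonin score (4.54 mean log2 CPM), liver 3 for Klhl7 (15.9 CPM), and liver 4 for Ezh2 (3.95 CPM), Slc1a2 (49.5 CPM) and Meg3 (4.10 CPM). The range of Klhl7 among the livers was small, so its gap is small in CPM.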

How the results depend on the processing

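The count of 12 calls moved with the test and with single libraries. It was 507 with DESeq2 (290 higher, 217 lower), 316 with edgeR's likelihood ratio test (220 and 96), 97 with voom and quality weights (55 and 42), 22 with no filter (14 and 8), 80 at an adjusted p of 0.1 (54 and 26) and 0 with the library set as a term (0 and 0; 2293 genes at an unadjusted p under 0.05). With the 8 libraries alone 4 genes were higher, and with total counts as the only scaling 1 was lower. Leaving out 1 library gave 0 to 231 calls, 0 to 157 higher and 0 to 74 lower. Genes without overlap numbered 1257 to 2251 when 1 library was left out, which fewer samples raise by construction. The causes of the other moves were not tested.

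Wild-type livers and tumors are of different genotypes, and no label says what a shared replicate number marks. The sample codes in the labels share letters between groups, with no meaning given. Same-numbered libraries correlated in their deviations at 0.22, 0.15, -0.06 and -0.12. Libraries with different numbers were not compared, so these values cannot show whether the numbers pair the samples. With the replicate block, edgeR called 1 gene (0 higher, 1 lower), and the log2 fold changes of E2f7 (0.0288), Oat (-1.53) and Gp2 (-0.21) reversed.

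Rb1 passed the threshold with DESeq2 (-0.92) and the likelihood ratio test (-0.90), and E2f8 with both (2.06 and 2.07). E2f7, near 0, reversed with voom (0.21), total counts (0.13) and no filter (0.00368), and ran from -0.17 to 0.19 when 1 library was left out. Voom also reversed Glul (-0.20), Oat (-1.77), Axin2 (-0.19), Gp2 (-2.73) and Igf2 (0.84), the library set reversed Gp2 (-0.0593) and total counts reversed Epcam (0.16). Leaving out 1 library reversed Glul (-0.86 to 2.57), Nkd1 (-0.51 to 4.37), Rhbg (-0.48 to 3.47), Slc1a2 (-0.51 to 3.37), Oat (-1.60 to 1.55), Axin2 (-0.52 to 1.95), Afp (-0.0469 to 0.51), Gp2 (-1.11 to 0.78), Egfl6 (-1.28 to 6.30), Meg3 (-0.79 to 4.28), Igf2 (-1.43 to 0.60), Epcam (-0.92 to 0.42), Alb (-0.13 to 0.59). The list of glycolysis and gluconeogenesis moved with total counts (median 0.19, score difference 0.12). The other list medians and scores moved by less than 1 SD, taken as the larger SD of the list score within tumors or within livers. An outlying library widens that SD, which was 1.72 for the pericentral list. Leaving out 1 library still changed the sign of some medians. Examples are the pericentral genes (-0.77 to 1.12), plasma proteins (-0.35 to 0.13) and NRF2 targets (-0.25 to 0.32). The covariate for sex was not run because it could not be fitted. All 12 libraries had few Xist counts and many Y-linked counts.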

Other observations

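Over all tested genes, 47.5% had a lower mean and 16.3% had an unadjusted p under 0.05. Of 35 interferon and antigen presentation genes, 26 had a lower mean in TKO tumors and edgeR and DESeq2 called 0, with 2 genes at an unadjusted p under 0.05. Of 35 plasma protein genes, 26 had a lower mean, with 0 at that threshold. Of 18 p53 targets, 13 had a higher mean, and of 20 NRF2 targets 13. Of 26 lipogenesis genes, 21 had a higher mean in TKO tumors and 1 was called higher by DESeq2, Pnpla3, a lipid droplet protein of hepatocytes. Pnpla3 was at 117 and 32.9 CPM in TKO tumors 1 and 2 and at 2.22 and 5.52 CPM in TKO tumors 3 and 4, against 1.11 to 5.86 CPM in livers. The list median of 0.43 was 0.08 without TKO tumor 1. Of 23 cholesterol synthesis genes, 9 had a higher mean, and the median of -0.11 turned to 0.18 without TKO tumor 3.

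Fgf21, a hormone made by stressed liver, was at 7.72, 18.8, 2.76 and 7.01 CPM in TKO tumors 1 to 4 and at 1.11 to 2.95 CPM in livers, and DESeq2 called it higher. Pck2, the mitochondrial form of the gluconeogenic enzyme, was called higher by DESeq2 (log2 fold change 1.26), while Pck1, the cytosolic form, was at 165 to 759 CPM in tumors and 795 to 2024 CPM in livers and was not called.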
